A study of Mus musculus with 2 samples.

Results

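The genes described here encode the subunits of oxidative phosphorylation, together with the assembly factors that share their gene symbols, in the mouse colorectal cancer cell line CT26. Members were every gene with a GENCODE mouse M21 symbol beginning with Nduf followed by a, b, c, s or v, Uqcr, Cox4 to Cox8 or Atp5, the genes Sdha, Sdhb, Sdhc, Sdhd and Cyc1, and the protein genes of the mitochondrial genome, with pseudogenes left out. The rule found 105 of 24223 genes in the count tables, of which 92 are nuclear and 13 mitochondrial. A further 11 pseudogenes carry matching symbols and were not counted as members.

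CT26 is a cell line derived from a colon carcinoma of BALB/c mice. A library came from CT26 cells given medium with 1 μM decitabine (DAC), a cytosine analogue that inhibits DNA methyltransferases, in 3 doses 24 h apart, followed by 24 h without drug. The control library came from CT26 cells cultured in parallel without DAC. With 1 library per group there was no replicate check, so no p-value or standard error is given, and differences are between these libraries.

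Oxidative phosphorylation couples the oxidation of nutrients to the synthesis of ATP at the inner mitochondrial membrane. Complex I takes electrons from NADH and complex II takes them from succinate, ubiquinone carries them to complex III, and cytochrome c carries them on to complex IV, which reduces oxygen. Complexes I, III and IV pump protons across the membrane, and complex V, the ATP synthase, lets them flow back to make ATP. Complex II is encoded wholly by nuclear genes. The other complexes combine nuclear subunits, made in the cytosol and imported, with a few subunits that are transcribed and translated inside the mitochondrion.

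The control table summed to 34221886 counts and the DAC table to 35163420. Levels are given as CPM, counts divided by the effective library size times 1e+06, with TMM factors of 1.07 for DAC and 0.936 for control, and a ratio is CPM in DAC over CPM in control. A gene was called higher or lower when it reached a CPM of 1 in either library, its ratio was at least 2 or at most 0.5, and its exact 95% interval, which covers counting error only, lay on the same side of 1. By that rule 10.8% of the 13545 genes past the minimum were called higher and 5.29% were called lower. Colon epithelial markers were low in control for Krt8, with 5 counts against 4445 in DAC, and Cdh1 and Vil1 were at 0 counts in control with 9 and 12 in DAC. Over the 9 epithelial markers in the tables the summed level was 75.9 CPM in control and 258 CPM in DAC, while the 4 mesenchymal markers summed to 7856 and 3190 CPM. The latter difference was that of Fn1, with a ratio of 0.265, since Vim, Cdh2 and Col1a1 had ratios of 1.15, 1.04 and 0.974. Most of the epithelial difference was that of Krt8, at 0.156 CPM in control and 118 CPM in DAC. Muc2, of the same list, went the other way, with 21 counts in control and 6 in DAC, a ratio of 0.243. Krt18 and Krt20 were present in both libraries, with 1797 and 593 counts in control, and the other 7 of the 9 lay under 1 CPM there. The leukocyte markers in the tables summed to 1.06 and 0.452 CPM and the endothelial markers to 0.250 and 0.319 CPM. The part of any change of cell state in the results was not tested.

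The nuclear subunits of the respiratory chain sat close together near the level of the control library, while the mitochondrially encoded subunits of complex I were lower in DAC than the rest of the mitochondrial genome. Of the 103 members past the minimum, 2 were called higher, Ndufa4l2 and Cox7b2, and 2 were called lower, Atp5s and mt-Nd4l, which is 1.94% in each direction beside the 10.8% and 5.29% of all genes. All of these except mt-Nd4l lie outside the core machinery, being tissue-restricted isoforms or an associated factor. Ndufa4l2 and Cox7b2, at 0.125 and 0 CPM in control, passed the minimum only through the DAC library, at 2.13 and 1.38 CPM. They could thus enter the count only by being higher in DAC, and at a CPM minimum of 5 no member was called higher. At a threshold of 1.5-fold, 9 members were higher and 6 lower, beside 19.3% and 15.2% of all genes. The ratios of 60 of the 103 members (58.3%) lay within 1.25-fold of 1 in either direction, as did 5617 of the 13545 genes (41.5%). Over all members the median log2 ratio was -0.16 with an interquartile range of 0.37, and over all genes it was -0.018 with an interquartile range of 0.81. The 13545 genes include those near the minimum, where counting error is larger, and genes of like abundance were not compared. The part of abundance in the narrower spread of the members was not tested.

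**Figure D1:**
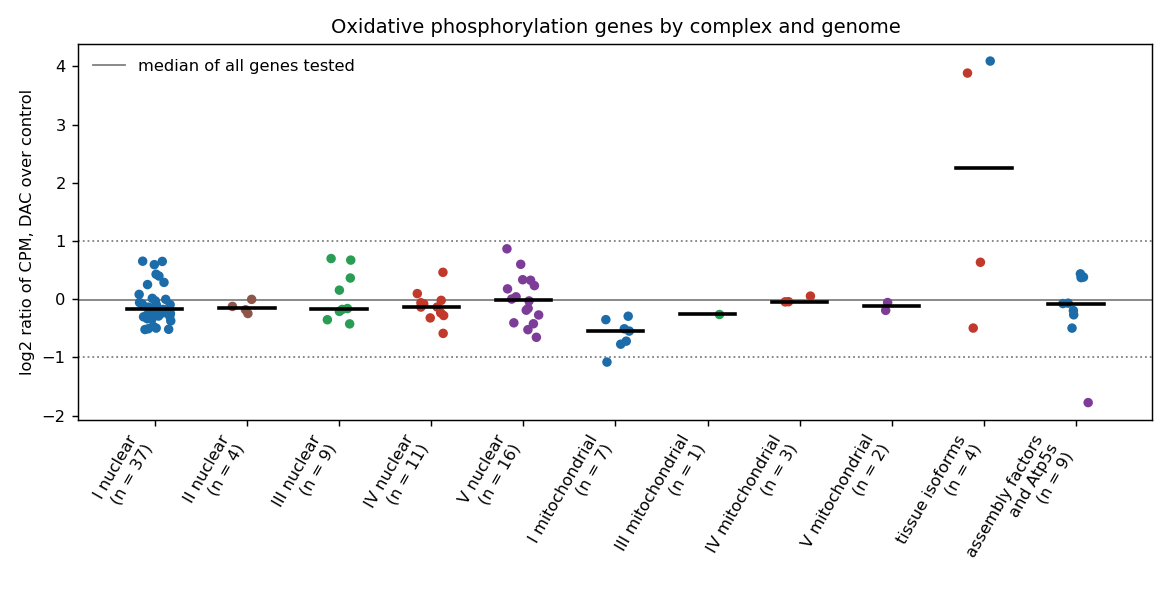
Log2 ratio of CPM, DAC over control, for each member past the minimum, by complex and by genome. Each point is a gene, coloured by complex, black bars are medians, the gray line is the median of all genes tested and dotted lines mark 2-fold. The mitochondrial genes of complex I lie below those of the other complexes, and only Ndufa4l2, Cox7b2, Atp5s and mt-Nd4l lie past a dotted line.

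The sequence of mt-Nd4l is shown because it is the subunit gene with the lowest ratio and because most of it also exists in the nuclear genome. The gene encodes a small membrane subunit of complex I and lies at M:9877-10173 on the plus strand of GRCm38, and it has no introns. The capitals mark the last 7 bases, which are also the first bases of mt-Nd4, so the genes overlap.
mt-Nd4l: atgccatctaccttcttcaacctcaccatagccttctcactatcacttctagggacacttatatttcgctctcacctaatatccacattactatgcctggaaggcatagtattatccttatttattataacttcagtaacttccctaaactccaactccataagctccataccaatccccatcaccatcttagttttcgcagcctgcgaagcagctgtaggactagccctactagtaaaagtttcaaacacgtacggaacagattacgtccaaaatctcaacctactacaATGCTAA

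The mitochondrial genome encodes 7 complex I subunits, which form the membrane arm that pumps protons. The gene mt-Nd4l had 22814 counts in control and 12657 in DAC, a ratio of 0.473 (0.463 to 0.483). Its neighbour mt-Nd4 had 143579 and 98573 counts, a ratio of 0.585 (0.580 to 0.590). The ratio of mt-Nd2 was 0.607, from 104333 counts in control and 74273 in DAC. These were the lowest ratios of the 13 mitochondrial genes. The gene mt-Nd1 had 172878 and 138761 counts, a ratio of 0.684. The longest of these subunits, mt-Nd5, had 140626 and 116000 counts, a ratio of 0.703. For mt-Nd6, which lies on the other strand and whose reads cannot be told from antisense RNA unless strand was counted, the counts were 34246 and 31499 and the ratio 0.784. The highest ratio among the complex I genes was that of mt-Nd3, 0.816, from 7185 and 6883 counts.

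Every one of these 7 ratios was below those of the 6 mitochondrial genes of complexes III, IV and V. The gene mt-Cytb, the cytochrome b of complex III, had 227636 counts in control and 222843 in DAC, a ratio of 0.834 (0.829 to 0.839). The catalytic subunit gene of complex IV, mt-Co1, had 465799 and 529533 counts, a ratio of 0.969 (0.965 to 0.973). Its copper-binding partner mt-Co2 had 95367 and 116126 counts and was the only mitochondrial protein gene with a ratio above 1, at 1.04, whereas 4 of the 13 lay above 1 by library totals and 8 with GC centring. The ratio of mt-Co3 was 0.970, from 102158 and 116322 counts. In complex V the proton channel subunit gene mt-Atp6 had 109924 and 123952 counts, a ratio of 0.961. Its overlapping neighbour mt-Atp8 had 31272 and 32126 counts, a ratio of 0.875.

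The median log2 ratio was -0.55 for the 7 complex I genes and -0.05 for the 6 others, a difference of -0.50 that no scaling of the libraries can change. The difference did not follow the order of the genes along the genome, since mt-Nd1 and mt-Nd2 come before the complex IV and V genes and the remaining complex I genes after them. Among all counts of mitochondrial protein genes, the complex I share was 37.7% (37.7 to 37.8) in control and 29.6% (29.5 to 29.6) in DAC, by exact binomial intervals. The complex IV share was 40.0% and 47.0%, the complex V share 8.52% and 9.64%, and the complex III share 13.7% and 13.8%. Mitochondrial protein genes as a whole held 4.84% of all counts in control and 4.61% in DAC. Scaled by TMM, their summed level was 51768 CPM in control and 43099 CPM in DAC, a ratio of 0.833, against 0.951 by library totals. The nuclear members together held 0.805% and 0.865% of all counts.

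**Figure D2:**
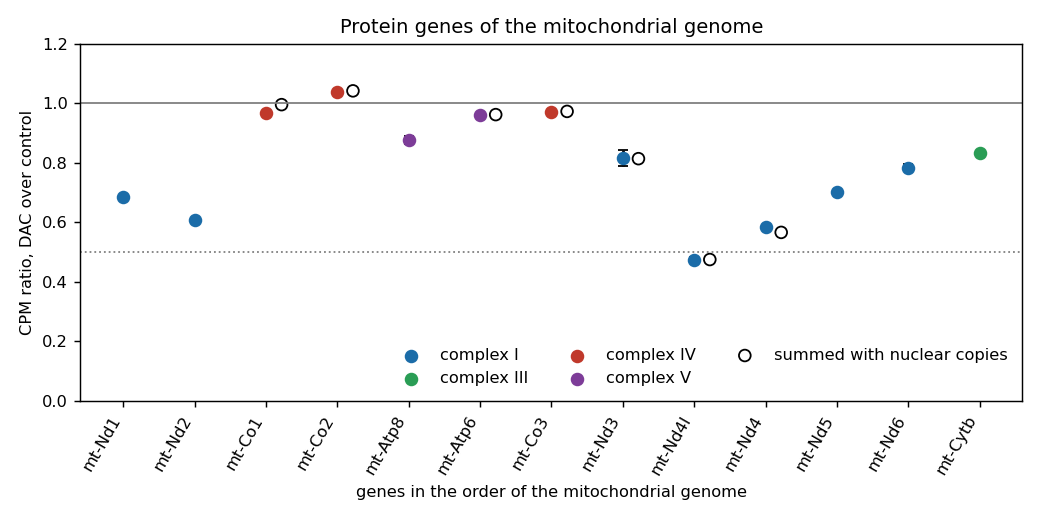
Ratio of CPM, DAC over control, for the 13 mitochondrial protein genes in genome order, coloured by complex. Bars are exact 95% counting intervals, mostly narrower than the points, and open circles give the ratio after adding the counts of nuclear copies. The 7 complex I genes lie at 0.473 to 0.816 and the 6 others at 0.834 to 1.04.

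Nuclear copies of mitochondrial DNA shared sequence with 7 of these genes, over more than 10% of their stretches. Of the 50-base stretches of mt-Nd4l, 98.8% also occur in annotated transcripts of other genes. The nuclear copy Gm10222 on chromosome 1 had 23054 counts in control and 12882 in DAC, almost the numbers of mt-Nd4l itself. For mt-Nd4 the shared part was 62.2%, and its copy Gm28439 had 58454 and 35576 counts. No source used here says how reads were divided between gene and copy, so these values belong to gene and copy together. With the copies added, a sum chosen after seeing the data, the ratio was 0.475 for mt-Nd4l, 0.566 for mt-Nd4, 0.996 for mt-Co1 and 1.04 for mt-Co2. The 6 genes with at most 10% shared stretches were mt-Nd1, mt-Nd2, mt-Nd5, mt-Nd6, mt-Cytb and mt-Atp8. Within these 6, complex I genes held 63.6% of counts in control and 58.6% in DAC, and their median log2 ratio minus that of mt-Cytb and mt-Atp8 was -0.30.

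Base composition differed between the genomes. The mitochondrial protein genes have a GC content of 31.9% to 41.1%, against a median of 49.5% over the genes tested and 50.2% over the nuclear subunits. Across the 13518 genes with a value, Spearman's rho between log2 ratio and GC content was 0.33, a description across genes, which share the same libraries and are not replicates. When each gene was centred on the median of its GC bin, the median log2 ratio of the 13 mitochondrial genes relative to all genes was 0.07 in place of -0.27, and mt-Nd4l was no longer called. The complex I genes still lay below the other mitochondrial genes after centring, with a difference of -0.46. Scaling by library totals also ended the call of mt-Nd4l.

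Other mitochondrial RNAs showed no common ratio. The small ribosomal RNA gene mt-Rnr1 had 5959 counts in control and 11683 in DAC, a ratio of 1.67 (1.62 to 1.72), whereas the large ribosomal RNA gene mt-Rnr2 had 14805 and 13395, a ratio of 0.771 (0.753 to 0.789). These libraries were made with poly-T selection. Of 22 mitochondrial tRNA genes, 11 passed the minimum, with a median ratio of 0.741.

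Nuclear genes supply 37 of the complex I subunits measured here. Their median log2 ratio was -0.18 (a ratio of 0.885), the ratios ran from 0.697 to 1.57, and none was called. The 7 core subunits, which carry the flavin and iron-sulfur clusters of the peripheral arm, had a median log2 ratio of -0.30, and the 30 accessory subunits had one of -0.16. The core subunits did not move together. In the module that oxidises NADH, Ndufv2 had 2905 counts in control and 2382 in DAC (ratio 0.699), Ndufs1 had 5376 and 4471 (0.709) and Ndufv1 had 1806 and 1734 (0.818). In the module that reduces ubiquinone, Ndufs3 had a lower level in DAC (0.810, from 2063 and 1962 counts) while Ndufs7 (1.32, from 1184 and 1831 counts) and Ndufs8 (1.22, from 856 and 1227 counts) had higher levels.

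Accessory subunits gave both ends of the complex I range. Ndufb4 had 877 counts in control and 717 in DAC, a ratio of 0.697 (0.630 to 0.770), and 37.0% of its stretches occur in transcripts of other genes. Ndufb2 had 419 and 773 counts, a ratio of 1.57 (1.39 to 1.78). Ndufc2 had 818 and 1505 counts, a ratio of 1.57 (1.44 to 1.71). All 3 belong to the membrane arm, as does Ndufb8, with 1686 and 2985 counts and a ratio of 1.51 (1.42 to 1.60). The most abundant nuclear complex I subunit per length in control was Ndufb9, with 121 CPM per kilobase of exon there and 93.7 in DAC, where Ndufa2 was higher at 102.

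Complex II, or succinate dehydrogenase, also serves the citric acid cycle. Its 4 subunits had ratios between 0.843 and 0.998, with a median of 0.899. The flavoprotein Sdha had 7399 counts in control and 7321 in DAC (0.843) and the iron-sulfur protein Sdhb 3658 and 3783 (0.881). The membrane anchors Sdhc (0.918) and Sdhd (0.998, from 3442 and 4030 counts) had the higher ratios of the complex. Sdhd was the most abundant per length, at 87.3 CPM per kilobase in control and 87.1 in DAC.

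Complex III passes electrons from ubiquinol to cytochrome c. Its 9 nuclear subunits had a median ratio of 0.895 and ranged from 0.745 to 1.62. Cyc1, the cytochrome c1 that hands electrons on, had 3353 counts in control and 6267 in DAC, a ratio of 1.59 (1.53 to 1.66). Uqcr11, a small accessory subunit, had 707 and 1346 counts, a ratio of 1.62 (1.48 to 1.78). The Rieske iron-sulfur protein Uqcrfs1 had a ratio of 0.895 and the core proteins Uqcrc1 and Uqcrc2 had ratios of 1.11 and 0.865. The lowest ratio was that of Uqcrq, 0.745, from 4905 and 4289 counts. Uqcr10, the most abundant per length in control, had 93.7 CPM per kilobase there and 82.9 in DAC.

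Complex IV, cytochrome c oxidase, had most of its nuclear subunits near equal levels. The ratios of its 11 widely expressed nuclear subunits had a median of 0.911, and 9 of the 11 (81.8%) lay within 1.25-fold of 1. Cox6a1, the most abundant of them per length, had 5442 counts in control and 6298 in DAC, a ratio of 0.986 (0.951 to 1.02), and 242 and 239 CPM per kilobase. The regulatory subunit Cox4i1 and Cox6b1 shared a ratio of 0.911. The exceptions were Cox7a2l, a factor that joins complexes into supercomplexes, with 6187 and 4832 counts and a ratio of 0.666 (0.641 to 0.691), and its paralogue Cox7a2, with 1713 and 2768 counts and a ratio of 1.38. Their counts therefore differed by less in DAC than in control.

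The ATP synthase had the widest range of ratios among nuclear subunits, from 0.635 to 1.82 around a median of 0.991. The interquartile range of its log2 ratios was 0.56, beside 0.57 for the nuclear subunits of complex III. Its catalytic F1 head is built from alternating alpha and beta subunits. The alpha subunit gene Atp5a1 had 9537 counts in control and 20393 in DAC, a ratio of 1.82 (1.78 to 1.87), the highest of all nuclear subunits. The beta subunit gene Atp5b had 44403 and 46729 counts, a ratio of 0.897 (0.885 to 0.909). Per kilobase of exon, Atp5b was at 3.44 times the level of Atp5a1 in control and at 1.70 times in DAC. Scaled by library totals, Atp5a1 passed 2-fold and was called higher.

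The remaining F1 subunits, Atp5c1 (gamma), Atp5d (delta) and Atp5e (epsilon), had ratios of 1.25, 1.18 and 1.03. In the membrane part, Atp5j2 had 4724 and 3521 counts and the lowest ratio of all nuclear subunits, 0.635 (0.608 to 0.664). The 3 genes Atp5g1, Atp5g2 and Atp5g3 encode the same mature ring protein, subunit c, and all were lower in DAC. Their ratios were 0.696 (2796 and 2282 counts), 0.746 (6678 and 5848) and 0.829 (5908 and 5744). Atp5k, a small subunit that helps to form dimers of the synthase, went the other way with 544 and 967 counts, a ratio of 1.51 (1.36 to 1.69).

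**Figure D3:**
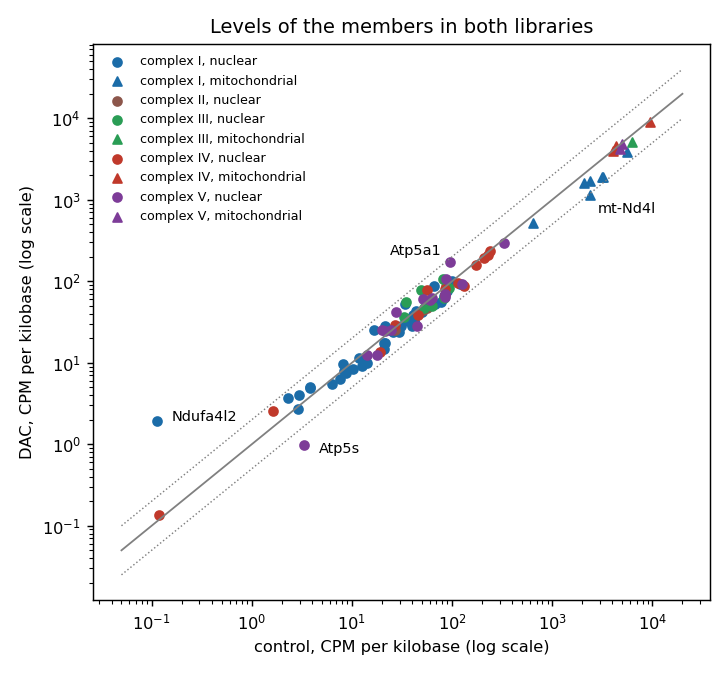
Level of each member with counts in both libraries, in CPM per kilobase of exon on log axes, control against DAC. Circles are nuclear and triangles mitochondrial genes, coloured by complex, the solid line marks equal levels and dotted lines 2-fold. Mitochondrial genes lie between 645 and 9415 CPM per kilobase in control, above the nuclear subunits, of which Atp5b is the highest at 327.

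Over all 77 nuclear subunits the median log2 ratio was -0.14, 54 had a ratio below 1 and 23 above, and none was called at 2-fold. The direction of such small differences depended on the scaling, since by library totals 30 lay below 1 and 47 above, while the median of all genes moved from -0.018 to 0.18. The interquartile range, which scaling does not touch, was 0.36. Spearman's rho between log2 ratio and GC content over these 77 genes was 0.28, again a description. GC centring changed the values of single subunits in both directions. The log2 ratio of Cox6a1 was -0.43 in place of -0.02 and that of Cyc1 0.27 in place of 0.67. That of Uqcr11 was 0.29 in place of 0.70, while that of Ndufb2 was 0.85 in place of 0.65. Sequence shared with transcripts of other genes exceeded 10% in 30 of the 105 members. For the nuclear ones the other gene can be a pseudogene, as Ndufb4c for Ndufb4, or an overlapping neighbour, as Pdzd9 for Uqcrc2 and Emc8 for Cox4i1. The nuclear subunits named in the text with such a share were Ndufs3 (39.7%), Ndufb4 (37.0%), Uqcrc2 (24.8%), Ndufb9 (23.4%), Cox7a2l (17.7%), Ndufb11 (17.5%), Atp5g2 (14.8%), Cox4i1 (14.7%) and Atp5g1 (11.6%). Exons also overlapped another gene over 19.7% of their length in Uqcrc2, 19.5% in Ndufb9, 12.9% in Ndufb11 and 10.3% in Cox6a2. The 3 members on the X chromosome, Ndufa1, Ndufb11 and Cox7b, had ratios of 0.723 to 0.851.

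Tissue isoforms replace a widely expressed subunit in muscle, lung, testis or other tissues, or under low oxygen. The tables held 6 such genes, and 4 passed the minimum. Cox7b2, which is known from testis and lies at chr5:71442824-71548205 on the minus strand of GRCm38, had 0 counts in control and 52 in DAC. With the control set to 3 counts the ratio was 14.8, and the exact counting interval began at 11.6. The widely expressed partner of Cox7b2, Cox7b, had 4500 and 4348 counts, a ratio of 0.823. The DAC level of Cox7b2, 2.55 CPM per kilobase, was far under the 95.3 CPM per kilobase of Cox7b in the same library.

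Ndufa4l2, which is known as a gene induced by low oxygen and lies at chr10:127514967-127517154 on the plus strand of GRCm38, had 4 counts in control and 80 in DAC, a ratio of 17.0 (6.40 to 64.1). Its partner Ndufa4, grouped here with complex I by its symbol although its protein is found in complex IV, had 2957 and 2731 counts, a ratio of 0.787. Hif1a, which encodes the oxygen-regulated factor, had 8200 and 6085 counts, a ratio of 0.632. This is a value of its RNA, and neither the protein nor its activity was measured here. Per length Ndufa4l2 reached 1.94 CPM per kilobase in DAC beside 52.6 for Ndufa4.

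The striated muscle isoforms showed no common pattern. Cox7a1 had 28 counts in control and 51 in DAC, a ratio of 1.55 with an interval of 0.961 to 2.56, which includes 1. Cox6a2 had 417 and 347 counts, a ratio of 0.709 (0.613 to 0.820), although it is regarded as a heart and skeletal muscle gene. The lung isoform Cox4i2 had 3 and 4 counts and the testis isoform Cox6b2 had 0 and 4, too few for a comparison at this depth. Beside these, the muscle marker Ckm had 0 counts in control and 220 in DAC, and the germ cell marker Ddx4 had 4 and 14. The 4 muscle markers in the tables summed to 0.125 CPM in control and 7.03 CPM in DAC, and the part of other cell types in the isoform counts was not tested.

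**Figure D4:**
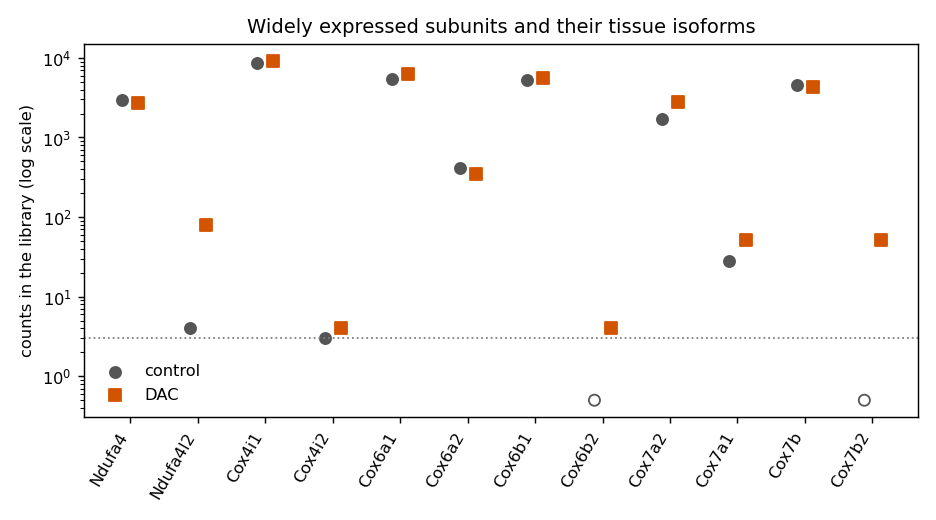
Counts of 6 widely expressed subunits and of their tissue isoforms in control (gray circles) and DAC (orange squares), on a log axis. Open circles at the bottom stand for 0 counts and the dotted line marks 3 counts. Ndufa4l2 and Cox7b2 are separated between the libraries, and in both libraries they lie far under their partners.

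The promoter windows of Cox7b2 and Cox7b are printed to show how this isoform and its partner differ in CpG dinucleotides, the sites that DNA methyltransferases modify. They are RefSeq windows of GRCm38.p6 reaching from 250 bases before to 50 after the transcript start, with each CpG in capitals. The window of Cox7b2, chr5:71548156-71548455 on the minus strand, has 10 CpGs, 0.564 of the number its base composition gives. That of Cox7b, chrX:106015450-106015749 on the plus strand, has 5 CpGs, a value of 0.368. This pair does not stand for the others, since the remaining isoforms with a window had lower values than their partners. Cox7a1 had 0.333 beside 0.833 for Cox7a2, and Cox6b2 had 0.432 beside 0.807 for Cox6b1. Methylation was not analysed here.
Cox7b2: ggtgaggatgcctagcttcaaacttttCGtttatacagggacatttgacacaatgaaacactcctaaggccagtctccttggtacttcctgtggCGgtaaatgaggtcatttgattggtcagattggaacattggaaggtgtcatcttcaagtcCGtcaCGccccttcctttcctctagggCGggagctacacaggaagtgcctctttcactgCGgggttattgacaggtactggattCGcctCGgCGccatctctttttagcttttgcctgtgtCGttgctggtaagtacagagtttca
Cox7b: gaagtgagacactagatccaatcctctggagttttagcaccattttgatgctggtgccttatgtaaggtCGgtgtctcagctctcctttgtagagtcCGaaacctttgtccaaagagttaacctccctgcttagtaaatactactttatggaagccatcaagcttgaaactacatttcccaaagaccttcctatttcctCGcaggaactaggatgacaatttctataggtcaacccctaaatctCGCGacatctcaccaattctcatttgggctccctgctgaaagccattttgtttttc

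As a set, the nuclear subunit genes had CpG-rich promoters. A window was found for 75 of the 92 nuclear members, of which 64 are subunit genes with 69 windows. The 3 tissue isoform windows, Cox7b2 among them, had a median CpG observed over expected of only 0.432. The windows used for comparison were not limited to genes past the CPM minimum. The subunit windows had a median of 19 CpGs, beside 7 over all 32817 windows, and a median CpG observed over expected of 0.823, beside 0.383. Motifs were searched on both strands by exact letters. The letters GCGCATG, from the motif of the nuclear respiratory factor NRF1, occurred in 18.8% of subunit windows and 3.90% of all. The ETS letters CCGGAAG, read by GABPA among others, occurred in 23.2% and 8.86%, the YY1 letters AAGATGGC in 14.5% and 2.74%, and the SP1 letters GGGCGG in 39.1% and 35.6%. These are descriptions of letters and not of bound sites, and the NRF1, ETS and SP1 letters themselves contain a CpG.

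The window of Cox6a1, the most abundant nuclear complex IV subunit per length, is printed because it holds several of these motifs together. It lies at chr5:115348909-115349208 on the minus strand of GRCm38.p6, and the capitals mark the letters found for NRF1, on both strands in an overlapping match, for ETS and for SP1.
Cox6a1: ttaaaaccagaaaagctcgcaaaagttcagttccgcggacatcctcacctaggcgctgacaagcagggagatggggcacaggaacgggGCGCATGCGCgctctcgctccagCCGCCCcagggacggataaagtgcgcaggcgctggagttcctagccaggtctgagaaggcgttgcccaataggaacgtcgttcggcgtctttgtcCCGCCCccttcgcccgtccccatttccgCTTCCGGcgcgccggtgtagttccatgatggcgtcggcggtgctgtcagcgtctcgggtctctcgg

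The associated factor Atp5s, known as coupling factor B, lies at chr12:69724950-69744660 on the plus strand of GRCm38 and had the lowest ratio of all members. It had 219 counts in control and 75 in DAC, a ratio of 0.292 (0.221 to 0.381), or 3.43-fold lower (2.62 to 4.52). The call held under every alternative tried at 2-fold. The 8 Ndufaf genes encode factors that assemble complex I and do not stay in it. Their median log2 ratio was -0.07, with ratios from 0.709 for Ndufaf5 to 1.35 for Ndufaf4, and none was called. Of the assembly factors with other symbols, 48 passed the minimum, 2 were called higher and 2 lower. That is 4.17% in each direction beside the 10.8% and 5.29% of all genes. Sco2, a copper chaperone for complex IV, had 181 counts in control and 806 in DAC, a ratio of 3.79 (3.23 to 4.48), while its paralogue Sco1 had a ratio of 1.09. Uqcc3, a complex III assembly factor, had 105 and 262 counts, a ratio of 2.13. Lyrm7, which helps to insert the Rieske protein, had 234 and 48 counts and was 5.72-fold lower (4.18 to 7.98). Sdhaf3, a factor for the iron-sulfur subunit of complex II, had 369 and 166 counts and was 2.61-fold lower. The call of Uqcc3 was lost with GC centring, while those of Sco2, Lyrm7 and Sdhaf3 held. By library totals Cox18 was also called higher.

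Genes that express and copy the mitochondrial genome had a median log2 ratio of 0.06, with ratios from 0.567 to 1.92. Of 48 genes tested, none was called, beside 10.8% called higher and 5.29% called lower of all genes. At 1.5-fold 8.33% were higher and 10.4% lower, beside 19.3% and 15.2% of all genes. Top3a was called higher by library totals and Mterf2 with GC centring. Tfam, which packages mitochondrial DNA and starts its transcription, had 1428 and 1735 counts, a ratio of 1.04. The mitochondrial RNA polymerase gene Polrmt had a ratio of 0.857 and the helicase gene Twnk one of 1.36. Among RNA-binding factors, Grsf1 had 2235 and 4308 counts, a ratio of 1.64, and Lrpprc had 7366 and 6450, a ratio of 0.746. The most abundant of the list per length in control, Hsd17b10, had a ratio of 0.741. The 78 mitochondrial ribosomal protein genes had a median log2 ratio of -0.10. Mrps11 was called higher at 2.01 and Mrpl32 lower at 0.498, which is 1.28% in each direction beside the 10.8% and 5.29% of all genes. Neither call held with GC centring, and that of Mrpl32 was also lost by library totals and with DESeq2 size factors. Mrpl38 was called lower with GC centring and Mrps12 higher by library totals.

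The nuclear regulators of respiration had a median log2 ratio of -0.26 over 21 genes. Of these, 4.76% were called in each direction, beside 10.8% higher and 5.29% lower of all genes. Nrf1 had 1323 and 1156 counts (0.745), Gabpa 3334 and 3348 (0.856) and the coactivator Ppargc1a 361 and 434 (1.02). Ppargc1b, a related coactivator, was called higher, with 78 and 189 counts and a ratio of 2.06 (1.58 to 2.72). Creb1, a cyclic AMP response factor, was called lower, with 1838 and 883 counts and a ratio of 0.409 (0.377 to 0.444). Esrra had a ratio of 1.25, Pprc1 one of 0.972 and Chchd2, the most abundant of the list per length in control, one of 0.797. With GC centring neither Ppargc1b nor Creb1 was called.

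Electron carriers and coenzyme Q genes had a median log2 ratio of -0.20 over 20 genes, with none called. Cycs, the somatic cytochrome c, had 12045 and 9405 counts, a ratio of 0.665 (0.648 to 0.684). Cyc1, to which cytochrome c docks in complex III, thus had a ratio above 1 and Cycs one below 1. Of 24 citric acid cycle genes, only Pdk1 was called, lower, which is 4.17% beside the 5.29% of all genes. This kinase, which inhibits pyruvate dehydrogenase, had 2369 and 1169 counts and was 2.38-fold lower (2.22 to 2.55). Mdh2, the most abundant per length in control, had a ratio of 0.963. By library totals Pdp2 was also called higher.

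Mitochondrial carriers, proteases, chaperones and shape factors had 2 genes called higher (5.71%) and 4 called lower (11.4%) of 35, beside 10.8% and 5.29% of all genes. Slc25a31, the ADP/ATP carrier of germ cells, had 0 counts in control and 60 in DAC. With its control count replaced as for Cox7b2, the ratio was 17.0, and the exact counting interval began at 13.4. The widely expressed carriers Slc25a4 and Slc25a5 had ratios of 1.23 and 1.21. Ucp2, an uncoupling protein family member, had 300 and 785 counts, a ratio of 2.23. The import chaperone Hspa9 had 123216 and 69284 counts and was 2.09-fold lower. The matrix protease Lonp1 (36080 and 20002 counts), the fission factor Dnm1l (8572 and 4775) and the calcium channel Mcu (3939 and 2176) were 2.12-fold, 2.11-fold and 2.12-fold lower. By library totals none of these 4 was called lower, and with GC centring only Lonp1 and Mcu were, and Ucp2 was not called higher.

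**Figure D5:**
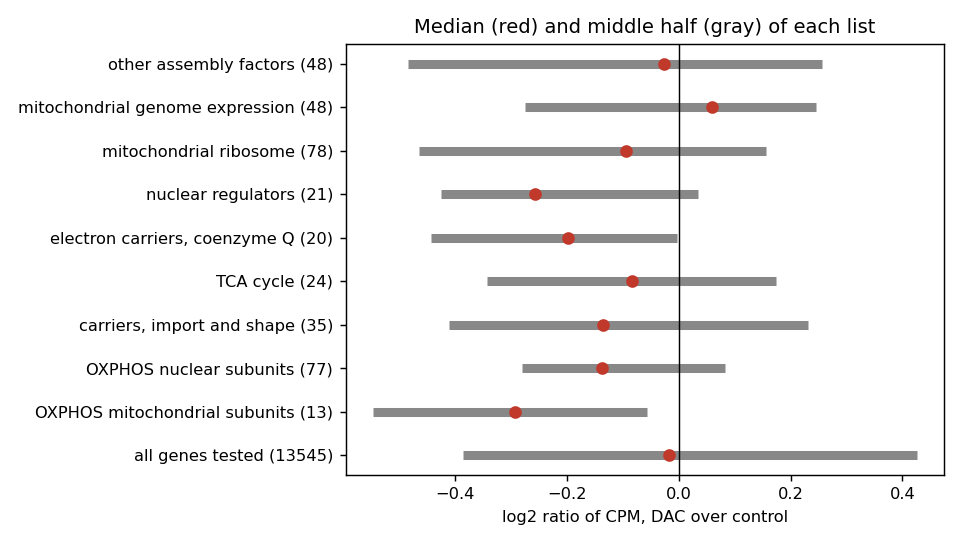
Median (red points) and interquartile range (gray bars) of the log2 ratio, DAC over control, for the lists of mitochondrial genes, the members and all genes, with the number of genes tested in parentheses. The nuclear subunits have a median of -0.14 and the mitochondrial subunits one of -0.29, and the bar of all 13545 genes is the widest.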

How the data were processed

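RNA-seq of 1 DAC-treated and 1 control CT26 library was analysed from the gene counts that the authors deposited, whole numbers per Ensembl gene with no normalization. Programs listed in the submitters' processing notes, without their roles, include STAR (2.5.3a), StringTie (1.3.1c), Cufflinks, Trim Galore, FastQC and DESeq, and the genome is mm10. The study's methods describe poly-T selection with TruSeq kits and FPKM values from CASAVA. No source used here says which program made the counts, or whether strand was used. Of 24223 identifiers, 24122 matched GENCODE M21 (GRCm38), and 0 columns were left unused.

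TMM factors came from edgeR 4.0.16 in R 4.3.3, and ratios and exact (Clopper-Pearson) 95% intervals from scipy 1.17.1 in Python 3.11.15. Counts of 0 were set to 3, genes under a CPM of 1 in both libraries were not called, and intervals cover counting error only. The interval code was tested on simulated data. No count model was fitted, since each group holds 1 library. Shared sequence is the percentage of 50-base stretches of a member's longest transcript found, on either strand, in GENCODE M21 transcripts of other genes. Overlapping neighbours count as sharing, and sequence outside annotated transcripts was not searched. Promoter windows came from RefSeq.

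Members and lists were chosen with earlier results of these data known. Named were all mitochondrial protein genes, called members, the 10 highest and 10 lowest ratios, tissue isoforms, the most abundant nuclear subunit of each complex, called genes and the most abundant gene of each list, and set regulators. Other subunits and partners were chosen after their values were seen. The scale was also set by library totals, by upper quartiles, by DESeq2 1.42.0 and by TMM without mitochondrial genes. Other alternatives were a prior count of 2, CPM minimums, fold thresholds, GC centring in 20 bins, and the omission or summing of shared sequence.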

Additional observations from a re-analysis of the deposited data

How the results depend on the processing

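Relative to the median of all genes, values below are median log2 ratios. Without a filter on low counts they were -0.031 for nuclear and -0.19 for mitochondrial subunits, and by complex -0.44 (I mitochondrial), -0.046 (II), -0.054 (III nuclear), -0.15 (III mitochondrial), -0.028 (IV nuclear), 0.063 (IV mitochondrial, reversed), 0.093 (V nuclear) and -0.018 (V mitochondrial), since the median of all genes moves when low genes enter. At a CPM of at least 5 the mitochondrial values were -0.23 for all 13, -0.49 (I), -0.20 (III), 0.018 (IV, reversed) and -0.063 (V), and no member was called higher. With GC centring the mitochondrial median was 0.072 (reversed), with -0.18 (I), 0.10 (III, reversed), 0.32 (IV, reversed) and 0.24 (V, reversed), and the nuclear values of III and IV were -0.015 and -0.010. With shared sequence left out the mitochondrial values were -0.41 together, -0.51 (I) and -0.17 (V), and IV nuclear was -0.031. Summed with nuclear copies, IV mitochondrial was 0.012 (reversed). The distance of mitochondrial complex I from the other mitochondrial genes was -0.46 with GC centring and -0.30 with shared sequence left out.

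By library totals, GC centring or omission of shared sequence 1 member was called lower, Atp5s. At 1.5-fold 9 were called higher and 6 lower, and at 4-fold 0 lower. Of 35 named members, the ratio crossed 1 in 7 by library totals, 8 with GC centring and 2 with DESeq2 size factors. No paired analysis was possible because each group has 1 library. With 1 library per group the spread between cultures is unknown for every member.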
